A study of Homo sapiens with 8 samples.

Results

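The miR-30 family was examined in small RNA-seq libraries of 4 tumor-derived human cell lines, with the abundance of each mature miRNA as the measurement. Its 10 members were taken by name, irrespective of their values: hsa-miR-30a-5p, hsa-miR-30a-3p, hsa-miR-30b-5p, hsa-miR-30c-5p, hsa-miR-30c-1-3p, hsa-miR-30c-2-3p, hsa-miR-30d-5p, hsa-miR-30d-3p, hsa-miR-30e-5p and hsa-miR-30e-3p. They were 10 of 2588 mature miRNA names and 11 of 2813 table entries, because miR-30c-5p has an entry for each of its 2 hairpins. The groups were ES-2 cells (ovarian cancer), MV-3 cells (melanoma), Huh-7 cells (hepatocellular carcinoma) and A-549 cells (lung adenocarcinoma), with 2 libraries per line that the study describes as biological replicates. All groups consisted of parental cells without any treatment or modified gene, harvested 48 h after seeding. Each tumor type was thus represented by a single cell line, so that tumor type, donor and history in culture cannot be told apart. P-values measure the spread between the 2 replicates of a line and not the spread between tumors.

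A miRNA hairpin is cut into a 5p and a 3p arm, and the arm loaded into an Argonaute protein guides it to mRNAs by its seed, the bases 2 to 8. The 5p arms of the miR-30 family share a seed and therefore share predicted target mRNAs, whereas the 3p arms carry other seeds. The family is widely expressed, abundant in epithelial tissues such as kidney and lung, and known for repressing mesenchymal mRNAs. Its hairpins lie in pairs at separate loci, and the hairpins of a pair are thought to be made from a shared primary transcript.

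Mature sequences were available from RefSeq (GRCh38.p14) for 7 of the 10 members and are shown because the comparison of loci depends on how well reads of related arms can be told apart. Capitals mark the seed.
miR-30a-5p: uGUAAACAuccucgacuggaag
miR-30e-5p: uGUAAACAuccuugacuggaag
miR-30c-5p: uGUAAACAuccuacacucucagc
miR-30a-3p: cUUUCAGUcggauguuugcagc
miR-30e-3p: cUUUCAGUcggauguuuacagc
miR-30c-1-3p: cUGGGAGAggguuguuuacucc
miR-30c-2-3p: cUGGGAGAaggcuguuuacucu
Counted from the 5′ end, miR-30a-5p and miR-30e-5p differ by the substitution C13U, and miR-30a-3p and miR-30e-3p differ by G18A. The sequence of miR-30c-5p is the same in both of its hairpins and shares its first 12 bases with miR-30a-5p. The 3p arms of the 2 miR-30c hairpins differ at 3 of 22 positions (G9A, U12C and C22U), so each can be assigned to its hairpin. Among 2370 mature names of the table with a RefSeq sequence, the seed GUAAACA was held by these 3 5p arms, UUUCAGU by these 2 3p arms, and UGGGAGA by both miR-30c 3p arms and miR-6788-5p.

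The hairpins of miR-30a and miR-30e illustrate the origin of both arms, which are given in capitals.
MIR30A: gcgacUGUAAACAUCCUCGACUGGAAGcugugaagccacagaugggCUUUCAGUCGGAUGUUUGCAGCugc
MIR30E: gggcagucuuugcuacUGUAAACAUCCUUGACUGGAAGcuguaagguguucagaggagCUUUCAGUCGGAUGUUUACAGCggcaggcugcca
MIR30A lies at chr6:71403551-71403621 on the minus strand of GRCh38. MIR30C2 lies 26519 bases away at chr6:71376960-71377031 on the same strand. Both are located within LINC00472, a long non-coding RNA gene (chr6:71187161-71420745). MIR30A is intronic in 11 of the 11 annotated transcripts that span it, and MIR30C2 is intronic in 8 and exonic in 1 of 9. MIR30E (chr1:40754355-40754446) and MIR30C1 (chr1:40757284-40757372) are 2837 bases apart on the plus strand. Both lie in introns of all 16 spanning transcripts of NFYC (chr1:40691648-40771603), which encodes a subunit of the transcription factor NF-Y.

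The remaining members come from the miR-30b and miR-30d hairpins on chromosome 8, for which no sequence is given. Libraries held 1173902 to 2670030 reads on mature miRNAs. Levels are given as normalised CPM, reads per 1000000 scaled by the trimmed mean of M values (TMM), with factors of 0.593 to 1.70. A level from 3 reads corresponded to 0.845 to 2.45 normalised CPM. Replicate libraries differed by more than counting error, their chi-square statistic per degree of freedom being 8.53 to 15.6. The hepatocyte marker miR-122-5p reached 83721 ± 3531 normalised CPM in Huh-7 (SD, n = 2) and at most 32.8 in another line. Of the melanocyte markers, miR-211-5p had 0 reads and miR-204-5p had 4 reads in MV-3, while miR-146a-5p was higher in Huh-7 (4165) than in MV-3 (559), so that these markers do not identify MV-3 as melanocytic. The blood cell miRNA miR-142-3p was found at 357 ± 27.5 in ES-2 with 0 reads in the other lines, whereas miR-451a and miR-223-3p had at most 4 reads in a line. Whether cells in culture differed in number or in RNA per cell cannot be told apart in such bulk libraries.

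Members were compared between lines with limma on log2(normalised CPM + 1), fitted to the 528 miRNAs that passed a filter on low counts and called at a Benjamini-Hochberg adjusted p below 0.01. This scale understates differences of members with few reads. Of the 10 members, 9 passed the filter, the exception being miR-30c-1-3p. Limma called 7 of these 9 in the joint test of the 4 lines, compared with 68.2% of all tested miRNAs. Only miR-30b-5p (adjusted p = 0.0169) and miR-30d-3p (adjusted p = 0.157) were not called. A call in the joint test was therefore common and not particular to the family, but the size and order of the differences varied strongly between members of different loci.

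**Figure D1:**
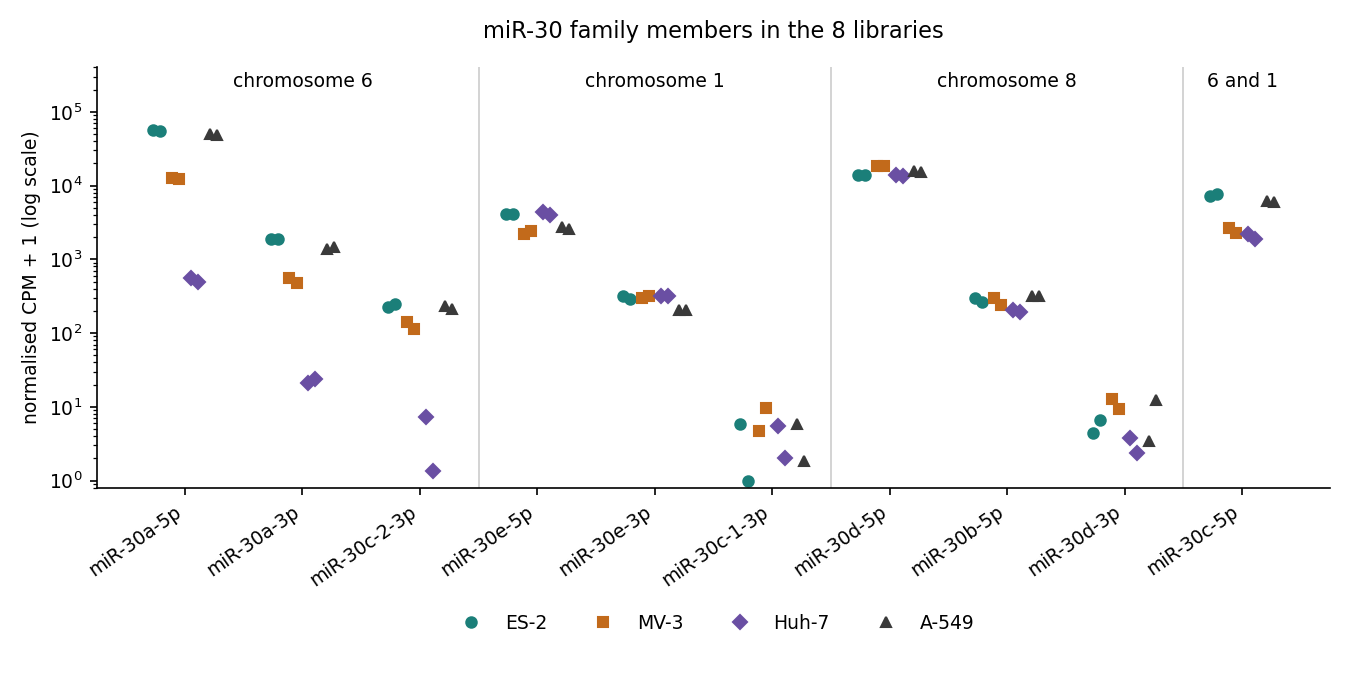
Normalised CPM + 1 (log scale) of the 10 members in each of the 8 libraries, ordered by chromosome of the hairpin, with 1 symbol per library. In Huh-7 the chromosome 6 members lie far below the other lines (494 and 551 normalised CPM of miR-30a-5p against 12296 to 56441), whereas line means of miR-30d-5p, miR-30b-5p, miR-30e-5p and miR-30e-3p differ by at most 1.81-fold with the TMM scaling shown.

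The chromosome 6 locus showed the largest differences within the family. Its main product, miR-30a-5p, reached 56441 and 55718 normalised CPM in the ES-2 libraries, 49594 and 47769 in A-549, 12793 and 12296 in MV-3, and 551 and 494 in Huh-7. The values of no 2 lines overlapped, and ES-2 and A-549 formed the upper end. It ranked 6 among all miRNAs in both ES-2 libraries and 3 in both A-549 libraries, but 72 and 71 in Huh-7. In Huh-7, the mean level was 107-fold below that of ES-2, or -6.75 on the log2 scale (SE 0.07, limma's adjusted p = 1.52e-08). Compared with MV-3, the level in Huh-7 was 24.0-fold lower, or -4.59 on the log2 scale (SE 0.07, limma's adjusted p = 5.42e-08). MV-3 was intermediate and 4.47-fold below ES-2 (log2 fold change -2.16, SE 0.07, limma's adjusted p = 3.37e-06). A-549 was not called different from ES-2, at -0.20 on the log2 scale (SE 0.07, limma's adjusted p = 0.0380). That difference was -0.72 and called when libraries were scaled by size only.

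The 3p arm of the same hairpin, miR-30a-3p, was less abundant and followed the same order of lines. Its levels were 1901 and 1909 normalised CPM in ES-2, 1365 and 1480 in A-549, 559 and 480 in MV-3, and 20.3 and 22.5 in Huh-7. Again no 2 lines overlapped. Log2 fold changes against ES-2 were -6.41 in Huh-7 (SE 0.11, limma's adjusted p = 5.78e-08) and -1.88 in MV-3 (SE 0.11, limma's adjusted p = 3.7e-05). The difference of -0.42 between A-549 and ES-2 was not called (SE 0.11, limma's adjusted p = 0.0165) unless libraries were scaled by size only, with -0.93. After centring over the lines, the 4 line means of miR-30a-3p differed from those of miR-30a-5p by a root mean square of 0.22 on the log2 scale.

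The second hairpin of the locus was represented by miR-30c-2-3p, the arm that is particular to it. It had 325 and 476 reads in ES-2, 376 and 258 in A-549, 188 and 202 in MV-3, but 22 and 1 in Huh-7. These reads correspond to 226 and 244 normalised CPM in ES-2, 231 and 211 in A-549, 139 and 111 in MV-3, and 6.19 and 0.342 in Huh-7. The Huh-7 libraries were thus the lowest, with the second at fewer than 3 reads. In Huh-7, miR-30c-2-3p differed by -6.25 on the log2 scale against ES-2 (SE 0.71, limma's adjusted p = 0.000333), -5.33 against MV-3 (limma's adjusted p = 0.000779), and A-549 exceeded Huh-7 by 6.16 (limma's adjusted p = 0.000359). Its size depended on the Huh-7 library, since it was -7.46 against ES-2 without replicate 1 and -5.03 without replicate 2. In fits restricted to the lines compared, limma's adjusted p rose to 0.0151, 0.0246 and 0.0124 and the calls were lost. ES-2, A-549 and MV-3 were not called different from each other in miR-30c-2-3p. Both MV-3 libraries nevertheless lay below those of ES-2 and A-549, at -0.91 on the log2 scale against ES-2 (SE 0.71). This SE is shared by all lines and includes the spread of the Huh-7 libraries, so the missing calls do not show equal levels. The arms miR-30c-2-3p and miR-30a-3p, from neighbouring hairpins, differed by a root mean square of 0.36 in their centred log2 line means.

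At the chromosome 1 locus, the line means of miR-30e-5p differed by at most 1.81-fold with TMM scaling and by at most 4.35-fold with scaling by library size only. Normalised CPM was 4347 and 3994 in Huh-7, 4075 and 4100 in ES-2, 2724 and 2596 in A-549, and 2218 and 2400 in MV-3. Huh-7 and ES-2 libraries overlapped, and so the line with the lowest miR-30a-5p had the highest mean of miR-30e-5p. Huh-7 and ES-2 were not called different (log2 fold change 0.03, SE 0.07, limma's adjusted p = 0.769), although scaling by library size only gave 0.99 and a call. Limma called MV-3 lower than ES-2 by -0.82 (SE 0.07, adjusted p = 0.000181) and A-549 lower than ES-2 by -0.62 (SE 0.07, adjusted p = 0.000382). The level in A-549 stood at -0.65 against Huh-7 (limma's adjusted p = 0.000248), and Huh-7 exceeded MV-3 by 0.85 (limma's adjusted p = 7.12e-05). The order of A-549 and MV-3 was not called (0.20, limma's adjusted p = 0.0467) and reversed to -0.75 with scaling by library size only. This scaling also moved A-549 against Huh-7 to -2.12, A-549 against ES-2 to -1.13, Huh-7 against MV-3 to 1.37 and MV-3 against ES-2 to -0.38, all still called by limma.

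For the 3p arm of this hairpin, miR-30e-3p, the differences called with TMM scaling all involved A-549. It was measured at 318 and 317 normalised CPM in Huh-7, 298 and 317 in MV-3, 320 and 291 in ES-2, and 205 and 206 in A-549. The other three lines lay between 291 and 320, while both A-549 libraries lay below them. Limma's log2 fold change of A-549 was -0.57 against ES-2 (SE 0.09, adjusted p = 0.00226), -0.58 against MV-3 (adjusted p = 0.00229) and -0.63 against Huh-7 (adjusted p = 0.00115). With RLE size factors these adjusted p-values were 0.0105, 0.0120 and 0.0169, so that none of the 3 calls was kept. DESeq2 also kept none (adjusted p = 0.0167, 0.0203 and 0.0395). The calls against ES-2 and MV-3 were also lost with edgeR, without the filter and in fits restricted to the lines compared. With scaling by library size only the log2 fold changes became -1.08, -1.53 and -2.09. Huh-7 was then also called higher than ES-2 (1.02, limma's adjusted p = 0.000141) and MV-3 (0.57, limma's adjusted p = 0.00270). The other chromosome 1 arm, miR-30c-1-3p, was near the limit of detection, with 0 to 16 reads per library. Its 0 reads in ES-2 replicate 2 still allow a level of 1.54 normalised CPM. The highest value was 8.78 in MV-3 replicate 2, and libraries of all lines overlapped, so that no difference was detectable at this depth.

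Since miR-30c-5p is made from hairpins on both chromosome 6 and chromosome 1, its table entries were examined for a split between loci. The chromosome 1 entry held between 48.98% and 50.34% of its reads, and the exact 95% binomial interval included 50% in 8 of 8 libraries. Reads were thus divided about evenly irrespective of the line, and the entries do not tell which hairpin was expressed. The summed level was 7197 and 7804 normalised CPM in ES-2, 6113 and 5955 in A-549, 2688 and 2262 in MV-3, and 2236 and 1909 in Huh-7. Hence with TMM scaling the order of lines equalled that of miR-30a-5p, but the range was much smaller. The log2 fold change against ES-2 was -1.86 in Huh-7 (SE 0.11, limma's adjusted p = 1.51e-05) and -1.60 in MV-3 (SE 0.11, limma's adjusted p = 8.38e-05). MV-3 and Huh-7 were not called different (-0.25, SE 0.11, limma's adjusted p = 0.0938). Scaling by library size only reversed their order, with Huh-7 above MV-3 by 0.27 on the log2 scale and no call. Under scaling by library size only, the decreases against ES-2 stayed called at -0.90 and -1.16, but the calls of higher miR-30c-5p in A-549 than in MV-3 (1.29) or Huh-7 (1.55) were lost at 0.34 and 0.07.

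The locus-specific 3p arms of miR-30c gave another view of both hairpins. In ES-2 replicate 1, miR-30c-2-3p had 46.4 times the reads of miR-30c-1-3p, and in replicate 2 there were 476 against 0 reads. In A-549 it had 47 and 258 times, and in MV-3 37.6 and 12.6 times the reads of miR-30c-1-3p. In Huh-7 the ratios were 1.38 and 0.333, from 22 against 16 and 1 against 3 reads. Thus the 3p reads of miR-30c came mainly from the chromosome 6 hairpin in 3 lines, whereas in Huh-7 both arms were too rare to compare. Relative to the sum of both 3p arms, miR-30c-5p was 31.6-fold (ES-2), 18.9-fold (MV-3) and 27.0-fold (A-549) more abundant on average. In Huh-7 this ratio was 209 and 1397.5, which reflects 38 and 4 reads of both 3p arms.

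**Figure D2:**
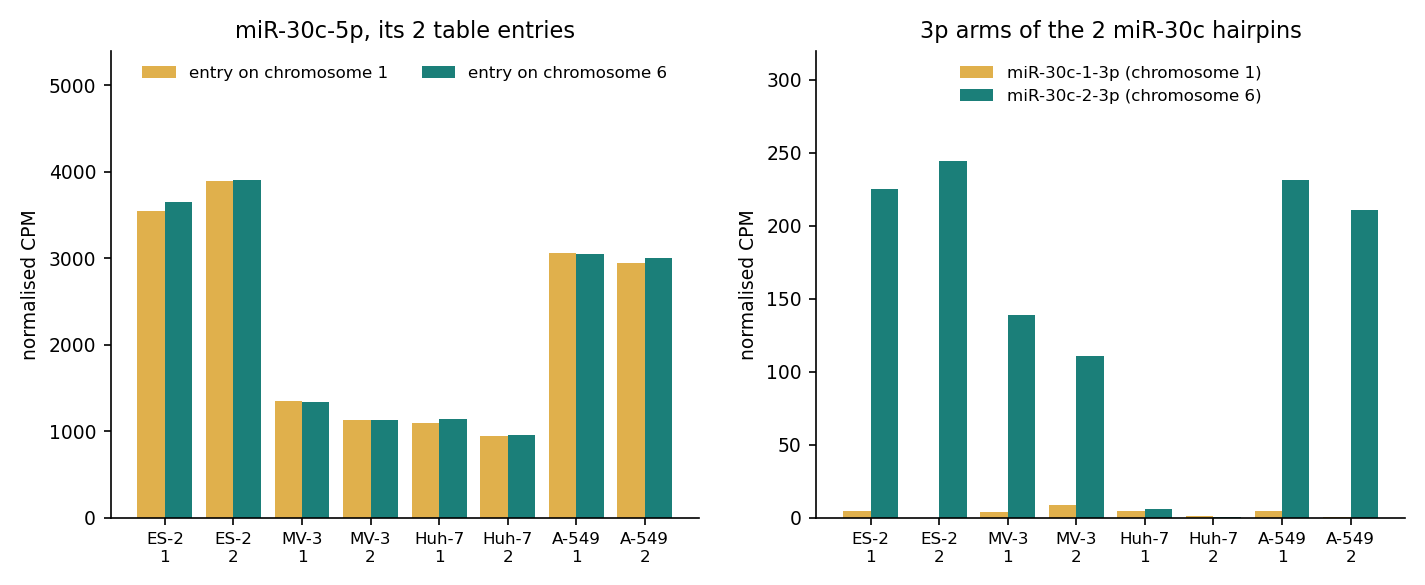
Left, normalised CPM of both table entries of miR-30c-5p in each library; right, normalised CPM of the 3p arms of both miR-30c hairpins (bars are single libraries, labelled by line and replicate). The 5p entries are nearly equal in every library, while miR-30c-2-3p reaches 111 to 244 normalised CPM in ES-2, MV-3 and A-549 and at most 6.19 in Huh-7, and miR-30c-1-3p does not exceed 8.78.

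At the chromosome 8 locus, miR-30d-5p was abundant in every library, and its line means differed by at most 1.35-fold with TMM scaling and 2.44-fold with scaling by library size only. It was measured at 18384 and 18419 normalised CPM in MV-3, 15816 and 15228 in A-549, 14115 and 13778 in ES-2, and 13798 and 13522 in Huh-7. The MV-3 libraries were the highest, and ES-2 and Huh-7 overlapped. Limma called MV-3 higher than ES-2 by 0.40 (SE 0.05, adjusted p = 0.000693) and Huh-7 lower than MV-3 by -0.43 (SE 0.05, adjusted p = 0.000255), although the latter turned to 0.09 without a call under scaling by library size only. A-549 was called below MV-3 (-0.25, limma's adjusted p = 0.00439), but with RLE size factors the adjusted p was 0.150, and with scaling by library size only the difference was -1.20. Between A-549 and Huh-7 the difference of 0.18 was not called (limma's adjusted p = 0.0119). It was called at 0.42 both with RLE size factors (limma's adjusted p = 0.000839) and by DESeq2 (adjusted p = 5.58e-07). With scaling by library size only it turned to -1.29, also called, so its direction depended on the scaling. Huh-7 and ES-2 were not called (-0.03, limma's adjusted p = 0.649), yet scaling by library size only gave 0.93. In Huh-7, miR-30d-5p ranked 6 among all miRNAs in both libraries, compared with 14 in ES-2, 7 and 9 in MV-3, and 9 and 10 in A-549.

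The partner hairpin yielded much less. For miR-30b-5p, levels were 317 and 321 normalised CPM in A-549, 294 and 259 in ES-2, 298 and 237 in MV-3, and 205 and 190 in Huh-7. Huh-7 was the lowest without overlap under TMM scaling, but limma called only the difference between A-549 and Huh-7 (0.69, SE 0.14, adjusted p = 0.00474). This call was lost when any library of Huh-7 or A-549 was left out, and the direction reversed to -0.78 under scaling by library size only. That scaling made Huh-7 the highest line on average, at 1.39-fold ES-2, 1.06-fold MV-3 and 1.72-fold A-549. In contrast, Huh-7 was called below ES-2 with RLE size factors (-0.61, limma's adjusted p = 0.00814) and by DESeq2 (-0.62, adjusted p = 0.00384). In each library, miR-30d-5p exceeded miR-30b-5p by 47.5-fold to 77.9-fold. The line means of both, centred on the log2 scale, differed by a root mean square of 0.24. With 4 to 16 reads per library, miR-30d-3p ranged from 1.37 to 11.8 normalised CPM, and no pair of lines was called by limma. The arm miR-30b-3p, which is no member of the list, had 49 and 59 reads in MV-3 and 6 to 24 in the other libraries (limma's joint adjusted p = 0.0226, not called).

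**Figure D3:**
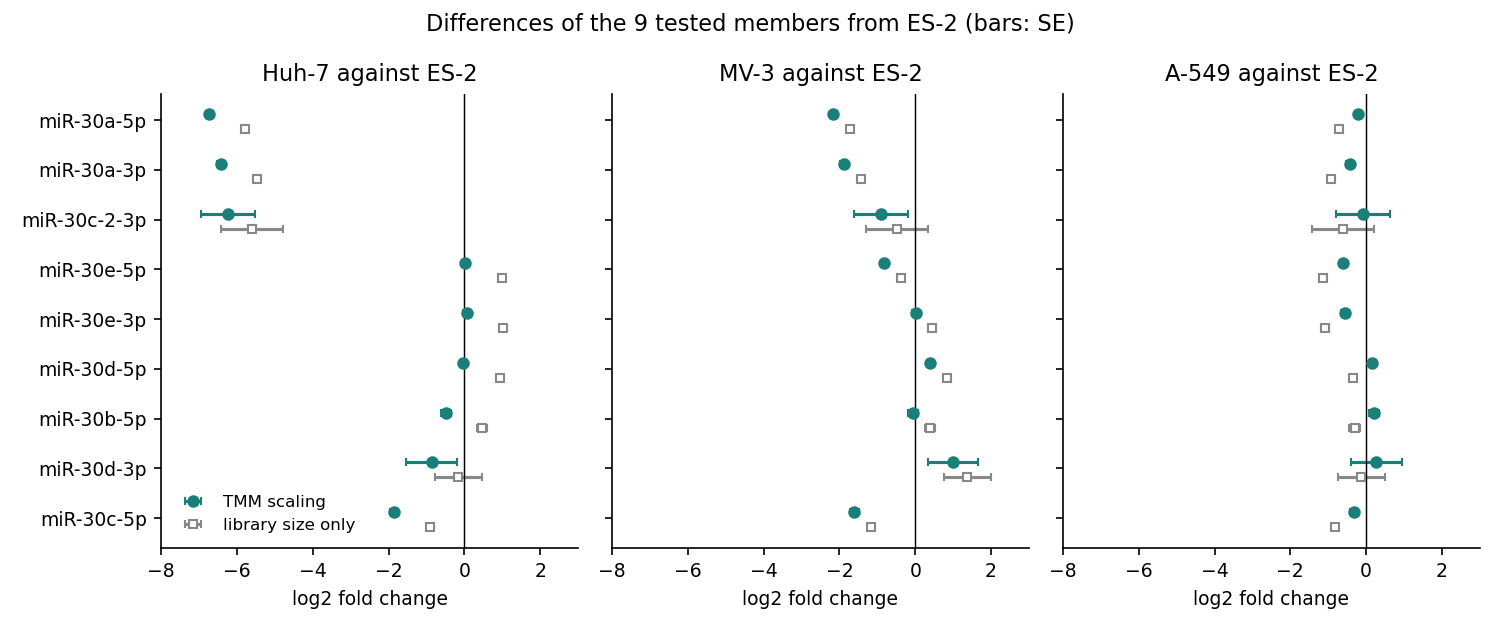
Log2 fold changes (x axis) of the 9 tested members in Huh-7, MV-3 and A-549 against ES-2, with SE as bars. Filled circles use TMM scaling and open squares library size only; the chromosome 6 members in Huh-7 stand at -6.75 to -6.25, far from 0 under either scaling, whereas miR-30d-5p and miR-30e-5p lie at -0.03 and 0.03 with TMM and at 0.93 and 0.99 with library size only.

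Counting members over the pairs of lines gave no uniform direction. Against ES-2, limma called 1 of the 9 tested members higher and 4 lower in MV-3, next to 11.6% higher and 14.2% lower among all miRNAs. The counts were 0 higher and 4 lower for Huh-7 against ES-2 (27.7% and 21.6% of all miRNAs), and 0 higher and 2 lower for A-549 against ES-2 (23.7% and 17.6%). Limma's counts for Huh-7 against MV-3 were 1 higher and 4 lower (26.9% and 20.1%), and those for A-549 against MV-3 were 3 higher and 2 lower (24.1% and 15.5%). In A-549, 5 members were higher and 2 lower than in Huh-7 (28.6% and 23.7%). The median log2 fold change of the tested members against ES-2 was -0.82 for MV-3 cells, -0.86 for Huh-7 cells and -0.20 for A-549 cells, compared with 0.00, 0.34 and 0.00 over all miRNAs. For Huh-7 and A-549 against MV-3 it was -0.43 and 0.26 (0.19 and 0.08 over all), and for A-549 against Huh-7 1.13 (-0.09 over all). Pairs with a common line share its libraries and are not independent of each other.

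The scaling affected the counts. Without TMM factors, the log2 fold changes of all miRNAs against ES-2 shifted by a median of 0.40 (MV-3), 0.87 (Huh-7) and -0.50 (A-549). The shifts were 0.52 and -0.88 for Huh-7 and A-549 against MV-3, and -1.33 for A-549 against Huh-7. Limma then called 3 members higher and 4 lower for Huh-7 against ES-2, next to 43.0% and 16.5% of all miRNAs. For MV-3 against ES-2 the counts were 1 and 4 (16.1% and 11.0%), and for A-549 against ES-2 0 and 6 (21.2% and 26.5%). For Huh-7 against MV-3 they were 2 and 3 (35.4% and 17.4%), for A-549 against MV-3 2 and 4 (15.5% and 30.1%), and for A-549 against Huh-7 3 and 4 (21.0% and 46.2%). The 3 chromosome 6 members stayed called in this scaling, with log2 fold changes of -5.79 to -4.04 in Huh-7 against ES-2 or MV-3.

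The composition of the family, computed within each library and thus independent of scaling, differed between lines. Of the reads of miR-30a-5p, miR-30c-5p, miR-30d-5p, miR-30e-5p and miR-30b-5p together, miR-30a-5p took 68.5% ± 0.350 in ES-2 (SD, n = 2), 66.5% ± 0.0317 in A-549, 34.8% ± 0.451 in MV-3 and 2.53% ± 0.108 in Huh-7. In contrast, miR-30d-5p took 66.3% ± 1.39 in Huh-7 and 51.1% ± 0.838 in MV-3, but 17.0% ± 0.223 in ES-2 and 21.2% ± 0.0158 in A-549. Therefore the leading member with the shared seed was miR-30a-5p in A-549 and ES-2, but miR-30d-5p in Huh-7 and MV-3. The share of miR-30e-5p was 20.2% ± 0.497 in Huh-7 and 3.63% to 6.42% in the other lines. That of miR-30c-5p stayed between 6.87% and 10.0%, and that of miR-30b-5p was at most 0.959%.

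**Figure D4:**
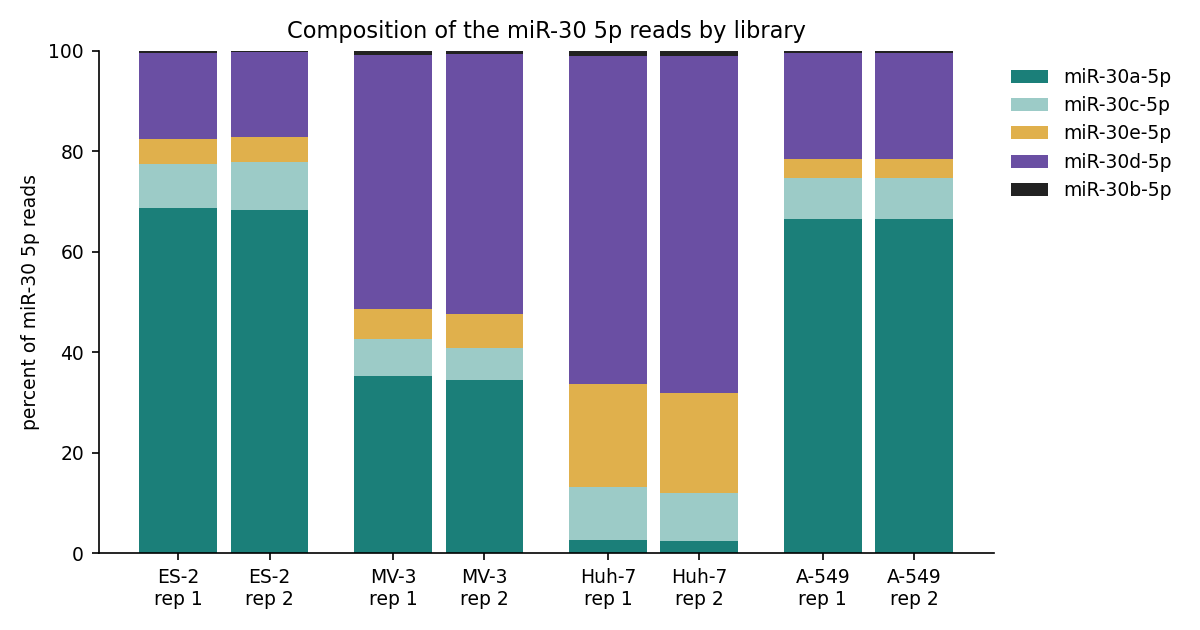
Percent of miR-30 5p reads (y axis) from each 5p member, as stacked bars, 1 bar per library. In both A-549 and ES-2 libraries miR-30a-5p makes up over 66% of each bar, in MV-3 miR-30d-5p makes up 50.5% and 51.7%, and in Huh-7 miR-30d-5p makes up 65.3% and 67.2% with miR-30a-5p below 3%.

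When miR-30c-5p, which has no unique origin, was left out, the chromosome 6 locus accounted for 75.4% ± 0.0797 of the remaining 5p reads in ES-2 (SD, n = 2), 72.5% ± 0.0142 in A-549, 37.4% ± 0.779 in MV-3 and 2.81% ± 0.144 in Huh-7. The chromosome 8 locus accounted for 19.1% ± 0.159, 23.6% ± 0.0148, 55.7% ± 0.344 and 74.7% ± 0.888 in the same order. Shares of the chromosome 1 locus were 5.49% ± 0.0795 in ES-2, 3.96% ± 0.0290 in A-549, 6.89% ± 0.435 in MV-3 and 22.5% ± 0.744 in Huh-7. All differences between lines in these shares were larger than the SD of the replicates, though no test was made on them. Adding miR-30c-5p in equal parts to chromosomes 6 and 1 raised the chromosome 6 share in Huh-7 to 7.55%, which still was the lowest.

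Ratios of single members within a library placed Huh-7 lowest for miR-30a, with MV-3 next, while the order of ES-2 and A-549 differed between ratios. The ratio of miR-30a-5p to miR-30e-5p, which differ by 1 base, was 18.3 ± 0.138 in A-549, 13.7 ± 0.184 in ES-2, 5.45 ± 0.456 in MV-3 and 0.125 ± 0.00226 in Huh-7 (SD, n = 2). For their 3p arms, miR-30a-3p to miR-30e-3p, it was 6.92 ± 0.371, 6.25 ± 0.442, 1.69 ± 0.254 and 0.0674 ± 0.00514. The ratio of miR-30a-5p to miR-30d-5p was 4.02 ± 0.0321 in ES-2, 3.14 ± 0.000847 in A-549, 0.682 ± 0.0200 in MV-3 and 0.0382 ± 0.00243 in Huh-7. Hence miR-30a-5p was scarce in Huh-7 relative to miR-30e-5p and miR-30d-5p, and miR-30a-3p was scarce relative to miR-30e-3p. The 3p arms of chromosome 8 were rarer still in Huh-7. Over both libraries, miR-30a-3p had 138 reads, miR-30d-3p had 14 and miR-30b-3p had 36. The ratio of miR-30d-5p to miR-30e-5p varied less, from 3.28 ± 0.149 in Huh-7 to 7.98 ± 0.436 in MV-3. How reads of these near-identical arms were assigned is not stated, and its part in the ratios was not tested.

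As a whole, the family took 7.23% ± 0.134 of all miRNA reads in ES-2, 4.51% ± 0.190 in A-549, 4.30% ± 0.00373 in MV-3 and 3.50% ± 0.0186 in Huh-7 (SD, n = 2). Its total thus varied by far less than that of the chromosome 6 locus. These shares depend on other abundant miRNAs, foremost miR-21-5p. Without the reads of miR-21-5p they were 9.99% in ES-2, 12.8% in A-549, 6.38% in MV-3 and 5.23% in Huh-7, and A-549 moved ahead of ES-2.

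Arm ratios were compared between lines within the same libraries, using limma on log2 of the 5p over the 3p level for 139 hairpin stems with both arms above the filter. Over all stems, 13.7% were called in the joint test. For miR-30e, the 5p arm was 12.7 and 14.1 times as abundant as the 3p arm in ES-2, 13.7 and 12.6 times in Huh-7, 13.3 and 12.6 times in A-549, but 7.43 and 7.57 times in MV-3. Both MV-3 libraries lay below all others. The difference of log2 ratios was -0.84 between MV-3 and ES-2 (SE 0.13, limma's adjusted p = 0.00995, next to 5.04% of stems called). Between Huh-7 and MV-3 it was 0.81 (SE 0.13, limma's adjusted p = 0.00864, next to 7.19% of stems). A-549 and MV-3 differed by 0.78 and were not called (limma's adjusted p = 0.0116, with 2.88% of stems called). These calls lay close to the threshold. If 0.1 was added in place of 1 before taking logs, limma's adjusted p was 0.0105 for MV-3 against ES-2 and 0.0103 for Huh-7 against MV-3, and leaving out any of the 8 libraries also ended both calls (adjusted p up to 0.0748).

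The ratio of both miR-30a arms was 29.7 and 29.2 in ES-2, 36.3 and 32.3 in A-549, 22.9 and 25.6 in MV-3, and 27.2 and 21.9 in Huh-7. It thus stayed within a narrow range while the line means of its arms varied 107-fold (miR-30a-5p) and 89.0-fold (miR-30a-3p), or 55.2-fold and 45.7-fold with scaling by library size only, and limma's joint test did not call it (adjusted p = 0.0571). For miR-30d, the 5p arm exceeded the 3p arm by 1330-fold to 9898-fold, and with 4 to 16 reads of miR-30d-3p per library no difference between lines was detectable (limma's joint adjusted p = 0.320). For miR-30b, whose 3p arm is not among the members, the mean ratio was 7.75 in MV-3 and 38.4 to 56.4 in the other lines, with a joint adjusted p of 0.0432 by limma. All 3p arms together contributed 1.66% to 2.91% of the family's reads. MV-3 had the lowest mean ratio for each of these hairpins, although its mean for miR-30a (24.2 ± 1.92) differed from that of Huh-7 (24.5 ± 3.74) by less than the SD (n = 2). On the fitted log2 scale the order of both was the opposite, with Huh-7 against MV-3 at -0.05. The joint test called neither miR-30a, miR-30d nor miR-30b. For miR-30e it gave a call just below the threshold (limma's joint adjusted p = 0.00991), which was kept in 3 of 15 alternatives.

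**Figure D5:**
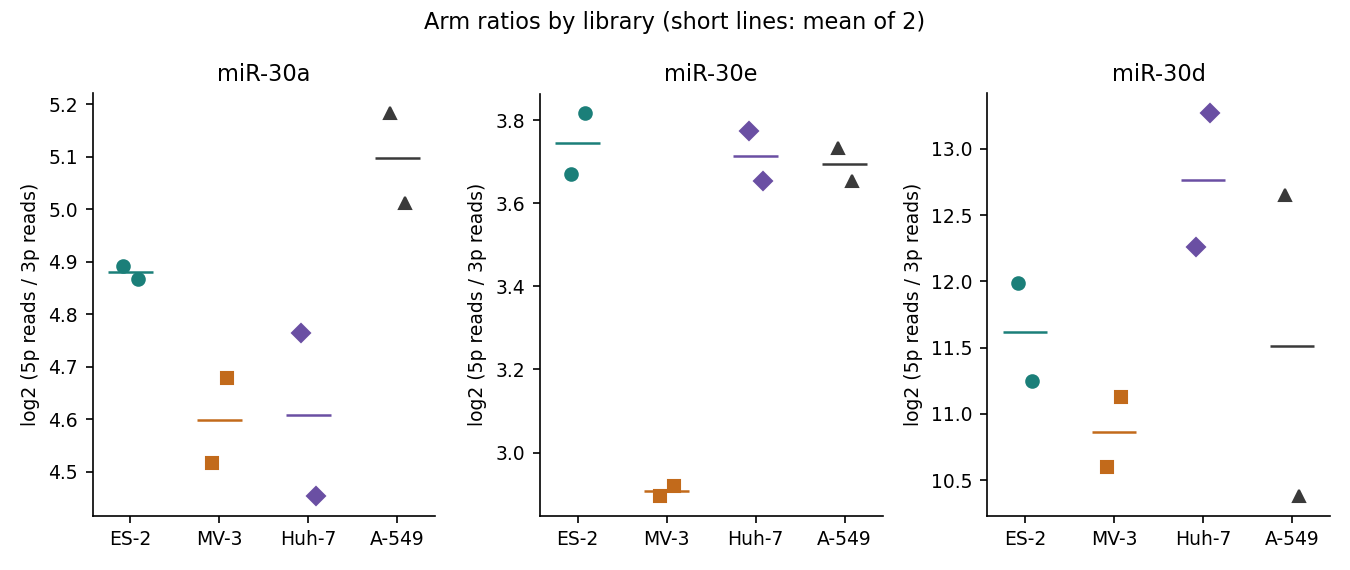
Log2 of 5p reads over 3p reads (y axis, a separate scale for each panel) of miR-30a, miR-30e and miR-30d in each library, with a line at the mean of 2. For miR-30e both MV-3 libraries lie near 2.9 and the other six between 3.65 and 3.82, whereas the lines of miR-30a and miR-30d lie closer to the spread of their replicates.

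To place the loci among other miRNAs, those with the most similar pattern over the 4 line means were determined. Candidates were 173 miRNAs outside the family with at least 100 normalised CPM on average. This is a description over 4 points that share libraries. Nearest to miR-30a-5p were miR-138-5p, miR-98-5p and let-7g-5p, with root mean square differences of 0.37, 0.47 and 0.58 on the centred log2 scale. The Huh-7 mean of miR-138-5p was 0.171 normalised CPM, below the level of 3 reads. Its difference of 0.37 therefore depends on the 1 added before taking logs. For comparison, miR-30a-5p differed from miR-30e-5p by 2.87 and from miR-30d-5p by 2.67. From miR-30a-3p and miR-30c-2-3p of its own locus it differed by 0.22 and 0.49. The nearest miRNAs were picked for their small differences, so they cannot be weighed against members taken by name. Levels of let-7g-5p, a member of the let-7 tumor suppressor family, were 18060 in ES-2, 9690 in A-549, 7476 in MV-3 and 219 in Huh-7. Nearest to miR-30e-5p were miR-107, miR-339-5p and miR-140-3p (0.15, 0.16 and 0.21). Nearest to miR-30d-5p were miR-1307-3p, miR-374a-3p and miR-151a-3p (0.12, 0.13 and 0.20). Among these, miR-151a-3p was measured at 3266 normalised CPM in MV-3 and at 1746 to 2025 in the other lines.

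Because miR-30 is known from epithelial cells, 7 epithelial miRNAs (miR-200a-3p, miR-200b-3p, miR-200c-3p, miR-141-3p, miR-429, miR-203a-3p and miR-205-5p) were set beside the family. Their summed level was 62.7 to 64.6 normalised CPM in the ES-2 libraries, 29.6 to 47.2 in MV-3, 2273 to 2339 in Huh-7 and 1606 to 1735 in A-549. The order differed from that of the chromosome 6 locus, since Huh-7 was the highest and ES-2 was low. Of the 4 that were tested, limma called 3 higher and 0 lower in each of Huh-7 and A-549 when compared with ES-2. Among all tested miRNAs, 27.7% (Huh-7) and 23.7% (A-549) were called higher than in ES-2, and 21.6% and 17.6% lower. Against MV-3, 4 of 4 were higher in Huh-7 and 4 of 4 in A-549, next to 26.9% and 24.1% of all miRNAs. None was called between MV-3 and ES-2 or between A-549 and Huh-7. For instance, miR-200b-3p, which targets ZEB1 and ZEB2 mRNAs, was at 1853 ± 8.51 in Huh-7 and 1354 ± 69.6 in A-549, compared with 17.0 ± 6.24 in MV-3 and 7.85 ± 1.66 in ES-2 (SD, n = 2). Thus Huh-7 with low miR-30a-5p and A-549 with high miR-30a-5p both had high summed levels, which came from miR-200a-3p, miR-200b-3p, miR-200c-3p and miR-429. The other three did not follow this order. Over both libraries of ES-2, A-549, Huh-7 and MV-3, in this order, miR-141-3p had 18, 1, 7 and 0 reads, miR-203a-3p had 19, 8, 1 and 2 reads, and miR-205-5p had 0, 4, 0 and 0 reads. Among the tested ones, miR-200a-3p had 0 reads in ES-2 and 1 in MV-3, and miR-429 had 2 and 5. Both passed the filter only through Huh-7 and A-549. Their calls were therefore largely fixed by the filter, and the counts of calls are a description only.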

How the data were processed

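Small RNA-seq of total RNA from A-549, Huh-7, MV-3 and ES-2 cells was processed by the authors with cutadapt 1.14, Bowtie2 2.3.2 on hg38, featureCounts 1.5.3 with miRBase annotation and edgeR 3.18.1. The treatment of multi-mapping reads, strand and random adapter bases was not stated. The authors deposited a TMM-normalised signal per miRNA entry (normalised CPM). Dividing the values of a library by the value of 1 read gave whole reads (100% within 0.001), and TMM factors recomputed from these reads differed by at most 6.7e-16. Reads were therefore not taken as molecules, and intervals and floors cover counting error only.

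Entries of a name were summed. Of 2588 names, 528 passed filterByExpr (10 reads) and were fitted with limma 3.58.1 (R 4.3.3), with a mean-dependent prior variance, 1 term per line, 8 libraries and 4 residual degrees of freedom. Calls were made at a Benjamini-Hochberg adjusted p below 0.01, for the joint test and 6 pairs. Shares, sums and ratios over members were described and not tested. The fits were tested on simulated reads.

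Named were the 10 members, miR-30b-3p, an epithelial list, line markers, and the 3 nearest miRNAs outside the family to miR-30a-5p, miR-30e-5p and miR-30d-5p. The members and lists were chosen with earlier results of these data known. miR-6788-5p and miR-21-5p were named after their values were seen. Hairpins came from RefSeq (GRCh38.p14) and host genes from GENCODE on GRCh38.

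Alternatives were scaling by RLE or by library size only, omitting the filter or requiring 10 normalised CPM, a pseudocount of 0.1, edgeR 4.0.16 and DESeq2 1.42.0 on recovered reads, a threshold of 0.05, a replicate block, the highest entry of a name instead of the sum, fits restricted to 2 lines and leaving out each library.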

Additional observations from a re-analysis of the deposited data

Results flagged for a closer look

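The ratio of miR-30e-5p to miR-30e-3p was singled out because its difference between lines was called by a test of that difference. The log2 ratio was lower in MV-3 than in ES-2 by -0.84 and higher in Huh-7 than in MV-3 by 0.81 (limma's adjusted p = 0.00995 and 0.00864). Both MV-3 libraries, at 7.43 and 7.57, lay below the 6 others, at 12.6 to 14.1. Of 15 alternatives, 3 kept the first call and 4 the second, with limma's adjusted p from 0.00533 to 0.0748, while the difference itself stayed between -0.91 and -0.76 and between 0.75 and 0.87. The cause was not tested.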

How the results depend on the processing

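Differences of the tested members and miR-30b-3p kept their side of the threshold and any called direction in 690 of 760 alternatives that use all libraries and in 537 of 560 that leave out 1 library. Differences called under neither setting were counted as kept. For the 3 chromosome 6 members in pairs with Huh-7, this was so in 168 of 171 alternatives, the exceptions being the restricted fits of miR-30c-2-3p. Among differences called under either setting, direction reversed only with library size only. There, miR-30b-5p in A-549 was -0.69 against MV-3 and -0.78 against Huh-7, and miR-30e-5p in A-549 was -0.75 against MV-3. Likewise miR-30d-5p was 0.93 in Huh-7 and -0.36 in A-549 against ES-2, 0.0903 in Huh-7 against MV-3 and -1.29 in A-549 against Huh-7. Over all miRNAs, fits restricted to 2 lines called 73 instead of 136 for MV-3 against ES-2 and 145 instead of 218 for A-549 against ES-2. Joint calls of arm ratios, 19 of 139 stems, were 6 with a pseudocount of 0.1, 46 at a threshold of 0.05 and 4 to 8 when leaving out a library. Adding miR-30c-5p in equal parts gave shares, in the order ES-2, A-549, MV-3 and Huh-7, of 73.1%, 70.6%, 38.3% and 7.55% for chromosome 6, 9.57%, 7.75%, 9.85% and 25.2% for chromosome 1, and 17.4%, 21.6%, 51.9% and 67.2% for chromosome 8. The family held 6.91% in ES-2, 4.16% in MV-3 and 3.33% in Huh-7 with only the highest entry of each name, and 9.99%, 6.38%, 5.23% and, in A-549, 12.8% without miR-21-5p. The cause of these changes was not tested beyond the construction of each setting. Members with few reads (miR-30c-1-3p, miR-30d-3p, and miR-30c-2-3p in Huh-7) are limited by depth.

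Deviations of libraries with the same replicate number were weakly correlated between lines (-0.05 to 0.23). The numbers were therefore not treated as a pairing, though these correlations cannot exclude one. With a replicate block, no call of a member changed, 7 stems instead of 19 were called in the joint test of arm ratios, and limma's adjusted p for miR-30e was 0.0184.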
